A study of Mus musculus with 9 samples.

Results

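The phagocyte NADPH oxidase is described here through 5 of its genes in mouse myeloid progenitors and MLL-AF9 leukemia cells: Cybb, Cyba, Ncf1, Ncf4 and Rac2. The members were all probe sets annotated to these symbols, 6 of the 22690 probe sets on the array and 5 of 12393 genes that a probe set names alone, with 2 probe sets for Ncf1 and 1 for each other gene. The study hybridised RNA of sorted hematopoietic cells from 3 groups of 3 arrays each. GMP were normal granulocyte-macrophage progenitors of bone marrow. L-GMP were GMP-like cells isolated from the bone marrow of mice with leukemia, which the study's title ties to the fusion oncogene MLL-AF9. L-GMP-derived cells came from growing L-GMP in vitro. The titles of their arrays are codes, and their source is given as L-GMP; they were read as this group because the design names 3 kinds of cell and the other 2 are labelled. Strain, age, sort gate and vector are not stated. The labels do not tie arrays to animals or cultures, so each p-value reflects only array-to-array spread, which may be technical.

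The oxidase moves electrons from NADPH across the phagocyte membrane onto oxygen and so makes superoxide, the start of the respiratory burst that kills ingested microbes. Cybb encodes gp91phox (NOX2), the catalytic core, and Cyba encodes p22phox, its membrane partner; each protein needs the other to be stable. In resting cells Ncf1 (p47phox) and Ncf4 (p40phox) wait in the cytosol, and on stimulation they move to the membrane together with the GTPase Rac2. In marrow the full set is switched on as granulocytes and monocytes mature past the progenitor stage.

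Signals are linear array intensities as deposited. Differences were tested with limma on log2 signals, with values under a floor of 62.4 set to that floor and p-values adjusted over all 14578 probe sets tested, and a call is an adjusted p under 0.05. Correlations between arrays over all tested probe sets were 0.958 to 0.991 within groups and 0.898 to 0.928 between groups. L-GMP-derived replicate 1 stood apart, with r of 0.958 and 0.964 to its group against 0.989 between the other two, and results that change without it are given with and without it. Of the 10 GMP markers, 2 were called higher and 4 lower in L-GMP against GMP, and 1 higher and 3 lower in L-GMP-derived cells against GMP. Over all 8965 genes tested at 1 probe set each, 13.1% were higher and 12.8% lower in L-GMP. In L-GMP-derived cells 13.4% were higher and 10.7% lower. Elane, Prtn3 and Ctsg were bright in every array, with a lowest signal of 5363 for Ctsg in L-GMP, whereas Mpo was 9366 ± 129 in GMP, 6028 ± 1199 in L-GMP and between 319 and 3581 in L-GMP-derived cells. Cebpa was 3.47-fold lower in L-GMP than in GMP (adjusted p = 0.00016). Kit was between 67.1 and 110 in the L-GMP-derived arrays and Cd34 was at the floor in all 3, whereas the lowest signal of either gene in GMP and L-GMP was 189, for Cd34 in L-GMP.

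**Figure D1:**
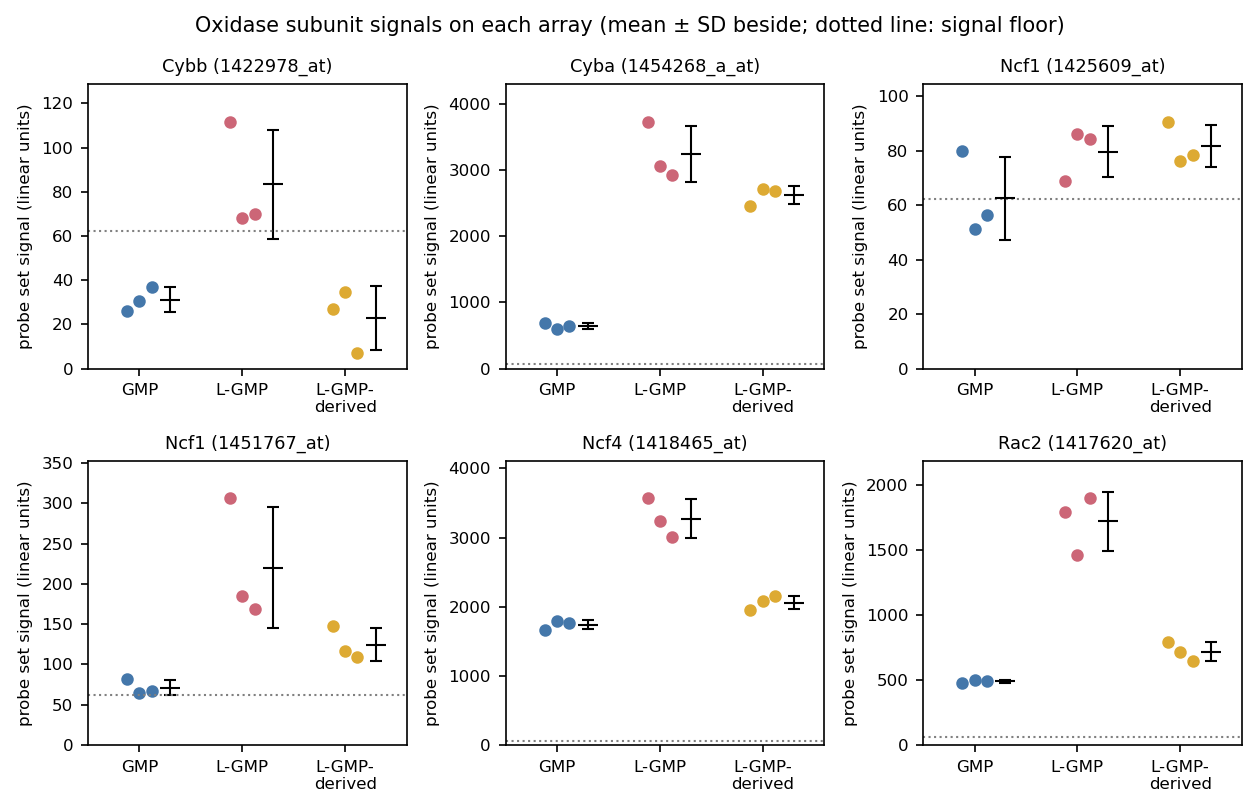
Array signal in linear units, from 0, of the 6 oxidase probe sets in each array of GMP, L-GMP and L-GMP-derived cells, with points for arrays, bars for mean ± SD (n = 3) and a dotted line at the floor of 62.4. For Cyba, Ncf4 and Rac2 every L-GMP array is above every array of the other groups, while Cybb and Ncf1 1425609_at stay near the floor.

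Among the membrane subunits, in the cells of leukemic marrow Cyba was far above its level in normal GMP, while Cybb stayed close to the floor in all groups. Cyba (1454268_a_at) gave 685, 603 and 644 in GMP, 3740, 3071 and 2938 in L-GMP, and 2468, 2715 and 2685 in L-GMP-derived cells. Every leukemic array therefore stood above every GMP array. The means were 644 ± 41.0 in GMP and 3249.9 ± 430.1 in L-GMP (SD, n = 3 each), a 5.03-fold rise (95% interval 4.27 to 5.92; log2 difference 2.33 ± 0.11 SE; adjusted p = 2.61e-07). Since these are bulk samples, more cells with Cyba RNA and more Cyba RNA per cell cannot be told apart, which holds for each result that follows.

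Cybb (1422978_at) gave 26.0, 30.7 and 36.9 in GMP, 112, 68.2 and 70.1 in L-GMP, and 26.8, 34.7 and 6.96 in L-GMP-derived cells. All GMP and L-GMP-derived arrays were below the floor, and the 3 L-GMP arrays were above it without overlapping the others. Its signal passed the filter on dim probe sets, 111, on 1 of 9 arrays, so it was not among the probe sets tested. When all 22626 probe sets were tested without the filter, the log2 difference between L-GMP and GMP was 0.38 ± 0.18 SE, with an adjusted p of 0.242, and no fold is given against values at the floor. The gene of the catalytic core was thus not called in any comparison at this signal.

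Of the cytosolic subunits and the GTPase, Ncf1, Ncf4 and Rac2 were also higher in L-GMP than in GMP. Ncf1 (1451767_at) gave 81.5, 65.0 and 67.7 in GMP, 307, 185 and 169 in L-GMP, and 148, 117 and 109 in L-GMP-derived cells. The L-GMP arrays did not overlap with GMP, and replicate 1 stood well above the other two. The L-GMP mean of 220.2 ± 75.2 against 71.4 ± 8.85 in GMP was a 2.99-fold rise (2.12 to 4.23; adjusted p = 0.000582). This probe set passed the filter through 3 L-GMP and 2 L-GMP-derived arrays and 0 GMP arrays, so it was tested only through its level in the leukemic cells. Its GMP values lie close to the floor, and with the floor raised to the 40th percentile its log2 difference was 0.93 in place of 1.58, so the size of the fold depends on the floor.

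The second Ncf1 probe set (1425609_at) did not show this rise. It gave 79.8, 51.4 and 56.5 in GMP, 68.8, 86.0 and 84.2 in L-GMP, and 90.7, 76.3 and 78.3 in L-GMP-derived cells, with overlapping groups. It was above the filter on 0 of 9 arrays, and without the filter its log2 difference between L-GMP and GMP was 0.23 ± 0.13 SE (adjusted p = 0.369). Both probe sets are annotated to Ncf1, and this difference had the same sign as that of the brighter probe set. With signals this close to the floor, 1425609_at cannot decide whether the rise is shared.

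Ncf4 (1418465_at), which was bright in all groups, gave 1663, 1792 and 1761 in GMP, 3571, 3239.5 and 3008 in L-GMP, and 1955, 2077 and 2148 in L-GMP-derived cells. All L-GMP arrays were above all others, and the remaining groups lay close together. The rise from 1739 ± 67.5 in GMP to 3273 ± 283 in L-GMP was 1.88-fold (1.66 to 2.13; log2 difference 0.91 ± 0.08 SE; adjusted p = 2.97e-05).

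Rac2 (1417620_at), the small GTPase of blood cells that activates the assembled oxidase, gave 479, 499 and 493 in GMP, 1795, 1464 and 1899 in L-GMP, and 790.1, 717 and 647 in L-GMP-derived cells. The groups were separate, in the order L-GMP, L-GMP-derived, GMP. Its mean was 491 ± 9.94 in GMP and 1719 ± 227 in L-GMP, a 3.48-fold rise (2.87 to 4.24; log2 difference 1.80 ± 0.13 SE; adjusted p = 5.42e-06).

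Of the 6 oxidase probe sets, 4 were called higher in L-GMP than in GMP, 0 were called lower and 2 were not tested. Among all probe sets tested 13.4% were called higher. All 4 tested members had L-GMP arrays that lay wholly above the GMP arrays, as did 22.9% of all tested probe sets. The median log2 difference of the 4 genes tested was 1.69, against -0.01 for all 8965 genes tested at 1 probe set each. Without Ncf1, which no GMP array carried past the filter, 3 of 3 were called higher with no overlap and the median was 1.80. These calls held in each of the 19 alternatives run for each member.

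**Figure D2:**
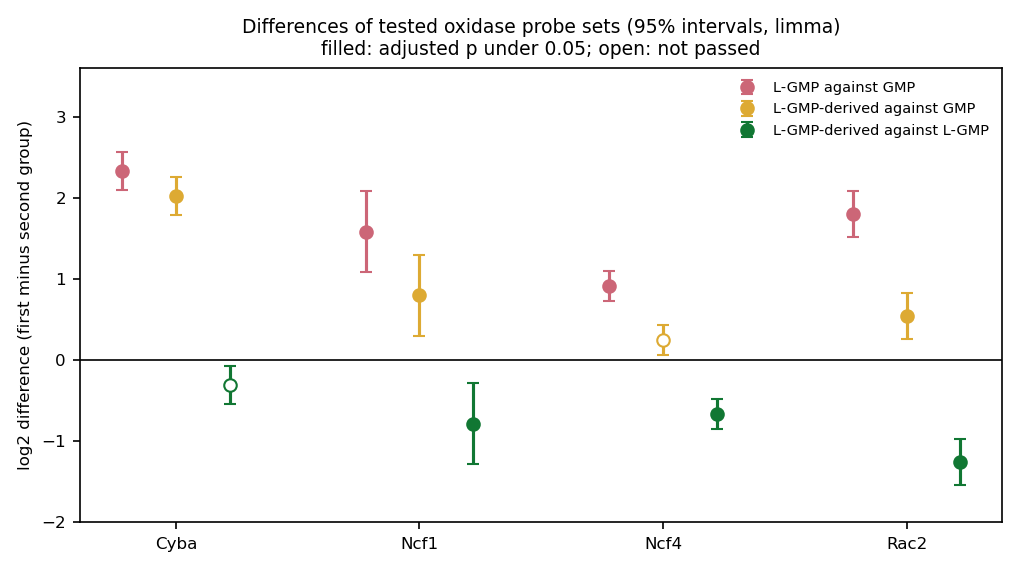
Log2 differences of the 4 tested oxidase probe sets (Ncf1 is 1451767_at) in the 3 comparisons, with 95% intervals from limma; filled points passed an adjusted p of 0.05 and open points did not. The L-GMP against GMP points run from 0.91 for Ncf4 to 2.33 for Cyba, and the open points are Ncf4 in L-GMP-derived cells against GMP (0.24) and Cyba in L-GMP-derived cells against L-GMP (-0.30).

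Where Cyba and Ncf1 rose together and Cybb stayed near the floor, their promoter sequences are shown so that the regions just upstream can be compared. The 250 bases before each start come from RefSeq (GRCm38.p6), 5′ to 3′ on the gene's strand, with matches to the motifs searched in capitals.
Cybb, chrX:9469325-9469574, minus strand: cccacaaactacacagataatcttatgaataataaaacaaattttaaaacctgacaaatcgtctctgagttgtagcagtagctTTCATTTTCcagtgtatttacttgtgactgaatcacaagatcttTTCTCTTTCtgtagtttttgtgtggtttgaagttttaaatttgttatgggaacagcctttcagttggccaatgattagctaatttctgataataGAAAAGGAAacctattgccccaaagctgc
Cyba, chr8:122432941-122433190, minus strand: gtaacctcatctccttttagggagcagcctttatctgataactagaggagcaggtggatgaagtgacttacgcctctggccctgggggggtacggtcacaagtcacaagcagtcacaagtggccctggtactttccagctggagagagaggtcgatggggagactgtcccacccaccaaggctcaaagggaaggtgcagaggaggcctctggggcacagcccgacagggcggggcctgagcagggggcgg
Ncf1, chr5:134229626-134229875, minus strand: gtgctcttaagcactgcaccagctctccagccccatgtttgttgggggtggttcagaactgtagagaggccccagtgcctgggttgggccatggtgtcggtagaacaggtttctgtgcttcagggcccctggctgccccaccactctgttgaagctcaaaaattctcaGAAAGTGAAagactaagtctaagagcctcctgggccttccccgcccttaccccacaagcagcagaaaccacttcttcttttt

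The motifs, searched on both strands, were GAGGAA (core of PU.1, the myeloid master regulator), GGAANNGAA (a composite for ETS and interferon regulatory factors), GAAANNGAA (interferon response element), TTNNGNAA (C/EBP), TGACAG (Meis) and TGATTTAT (Hox with Pbx). GAGGAA and GGAANNGAA can share bases, as can GGAANNGAA and GAAANNGAA. The capitals in Cybb mark 3 matches to GAAANNGAA, with bases -167 to -159 and -123 to -115 on the opposite strand and -29 to -21 on the gene's strand. Ncf1 held 1 match, at -82 to -74, and Cyba held 0 matches to any of the 6 motifs. Of 32851 promoters in the table, 7.13% held GAAANNGAA in this window, 23.3% GAGGAA, 6.99% GGAANNGAA, 36.8% TTNNGNAA, 15.9% TGACAG and 0.837% TGATTTAT. The G+C content was 34% for Cybb, 60% for Cyba and 54.4% for Ncf1. A match describes letters and no binding was measured. Ncf4 and Rac2 lie on chromosome 15 with 10 protein-coding genes between them in RefSeq, among them Csf2rb and Csf2rb2, genes of cytokine receptor chains.

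Cells grown in vitro from L-GMP also had more Cyba, Rac2 and Ncf1 than normal GMP, and Ncf4 did not pass the test. Cyba was 2623 ± 135 (SD, n = 3) in L-GMP-derived cells, 4.08-fold above GMP (3.47 to 4.80; log2 difference 2.03 ± 0.11 SE; adjusted p = 5.93e-07). Rac2, at 718 ± 71.7, was 1.46-fold above GMP (1.20 to 1.77; adjusted p = 0.0107), with no overlap of arrays. Ncf1 (1451767_at), at 124 ± 20.7, was 1.74-fold above GMP (1.23 to 2.46; adjusted p = 0.0263). That Ncf1 call ended with the floor at the 40th percentile (log2 difference 0.16, adjusted p = 0.619) and with no filter on dim probe sets (0.80, adjusted p = 0.0846). It also ended without L-GMP-derived replicate 1 (log2 difference 0.67, adjusted p = 0.0592) and without GMP replicate 2 or 3 or L-GMP-derived replicate 2. Ncf4, at 2059.8 ± 97.7, was 1.18-fold above GMP (1.04 to 1.34; adjusted p = 0.0542) and did not pass the test, although its arrays did not overlap with GMP. It passed without L-GMP-derived replicate 1 (log2 difference 0.28, adjusted p = 0.0271) and without L-GMP replicate 1 or 3. Cybb was at the floor in all arrays of both groups. In all, 3 of the 6 oxidase probe sets were called higher, against 14.0% of those tested, and 4 had arrays wholly above GMP, against 22.3%. The median log2 difference of the 4 tested genes was 0.67, against 0.00 for all genes tested. Without Ncf1, 2 of 3 were called higher and the median was 0.54.

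Set against L-GMP, the cells grown in vitro had less Rac2, Ncf4 and Ncf1. Rac2 was 2.39-fold lower (1.96 to 2.90; log2 difference -1.26 ± 0.13 SE; adjusted p = 5.86e-05), and Ncf4 was 1.59-fold lower (1.40 to 1.80; adjusted p = 0.000208). Ncf1 (1451767_at) was 1.72-fold lower (1.22 to 2.44; adjusted p = 0.0235), a call that ended without L-GMP replicate 1 (log2 difference -0.52, adjusted p = 0.0672) and without L-GMP-derived replicate 2 or 3. The highest Ncf1 array, L-GMP replicate 1, was also the L-GMP array with the most Cybb, Cyba and Ncf4, while Rac2 was highest in L-GMP replicate 3. Cyba was 1.23-fold lower (1.05 to 1.45; adjusted p = 0.0538), which did not pass, with all L-GMP arrays above all L-GMP-derived arrays; it passed without L-GMP replicate 3 (adjusted p = 0.0418). Thus 3 of the 6 oxidase probe sets were called lower, against 13.5% of those tested, and all 4 tested ones had arrays wholly below L-GMP, against 19.3%. The median log2 difference of the 4 tested genes was -0.72, against -0.00 for all genes tested. Without Ncf1, 2 of 3 were called lower and the median was -0.67. Without L-GMP-derived replicate 1 the counts of oxidase probe sets stayed at 3 higher against GMP and 3 lower against L-GMP. The order L-GMP, L-GMP-derived, GMP held for the means of all 4, and the neighbours in it that did not pass the test were L-GMP and L-GMP-derived for Cyba and L-GMP-derived and GMP for Ncf4. The 3 comparisons share arrays, so their values are not independent of each other.

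Other genes of the complex were counted beside the members. Of the further complex and assembly genes, 6 were measured by a probe set of 1 symbol and tested. In L-GMP against GMP 3 of the 6 rose and 0 fell, with a median log2 difference of 0.32, against 13.1% of all genes called higher and 12.8% lower. Cybc1, whose product helps gp91phox mature, was 509.9 ± 13.6 in GMP, 831 ± 50.6 in L-GMP and 536 ± 53.7 in L-GMP-derived cells. It rose by 0.70 on the log2 scale in L-GMP (adjusted p = 0.00128) and was lower by -0.64 in L-GMP-derived cells than in L-GMP (adjusted p = 0.002). Rac1, the widely expressed relative of Rac2, rose in L-GMP by a log2 difference of 0.34 (adjusted p = 0.0047). Rap1b, a close relative of Rap1a, the small GTPase found with the flavocytochrome, had a log2 difference of 0.31 at an adjusted p of 0.04997, a call lost in 12 of 18 alternatives. Rap1a (log2 difference 0.10) and Noxo1 (-0.30) did not pass.

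Hvcn1, the proton channel that offsets the charge moved by the oxidase and limits the swing in voltage, was not ordered like the members. It was 224 ± 4.95 in GMP, 325 ± 94.5 in L-GMP and 91.7 ± 24.2 in L-GMP-derived cells. The L-GMP value did not pass against GMP (adjusted p = 0.124), whereas the L-GMP-derived value was 2.49-fold below GMP (adjusted p = 0.00169) and 3.52-fold below L-GMP (adjusted p = 0.000172). In L-GMP-derived cells against GMP it was the 1 of the 6 genes called lower, and 0 were called higher. Against L-GMP 3 of the 6 fell. Over all genes tested 13.4% were higher and 10.7% lower against GMP, and 16.6% higher and 14.1% lower against L-GMP. Of the other NADPH oxidases only Nox4, the oxidase that needs p22phox but no cytosolic subunits, was tested. It was 387 ± 29.8 in GMP, 229 ± 30.9 in L-GMP and 358 ± 48.0 in L-GMP-derived cells, a log2 difference of -0.76 in L-GMP against GMP (adjusted p = 0.003) opposite in direction to Cyba.

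**Figure D3:**
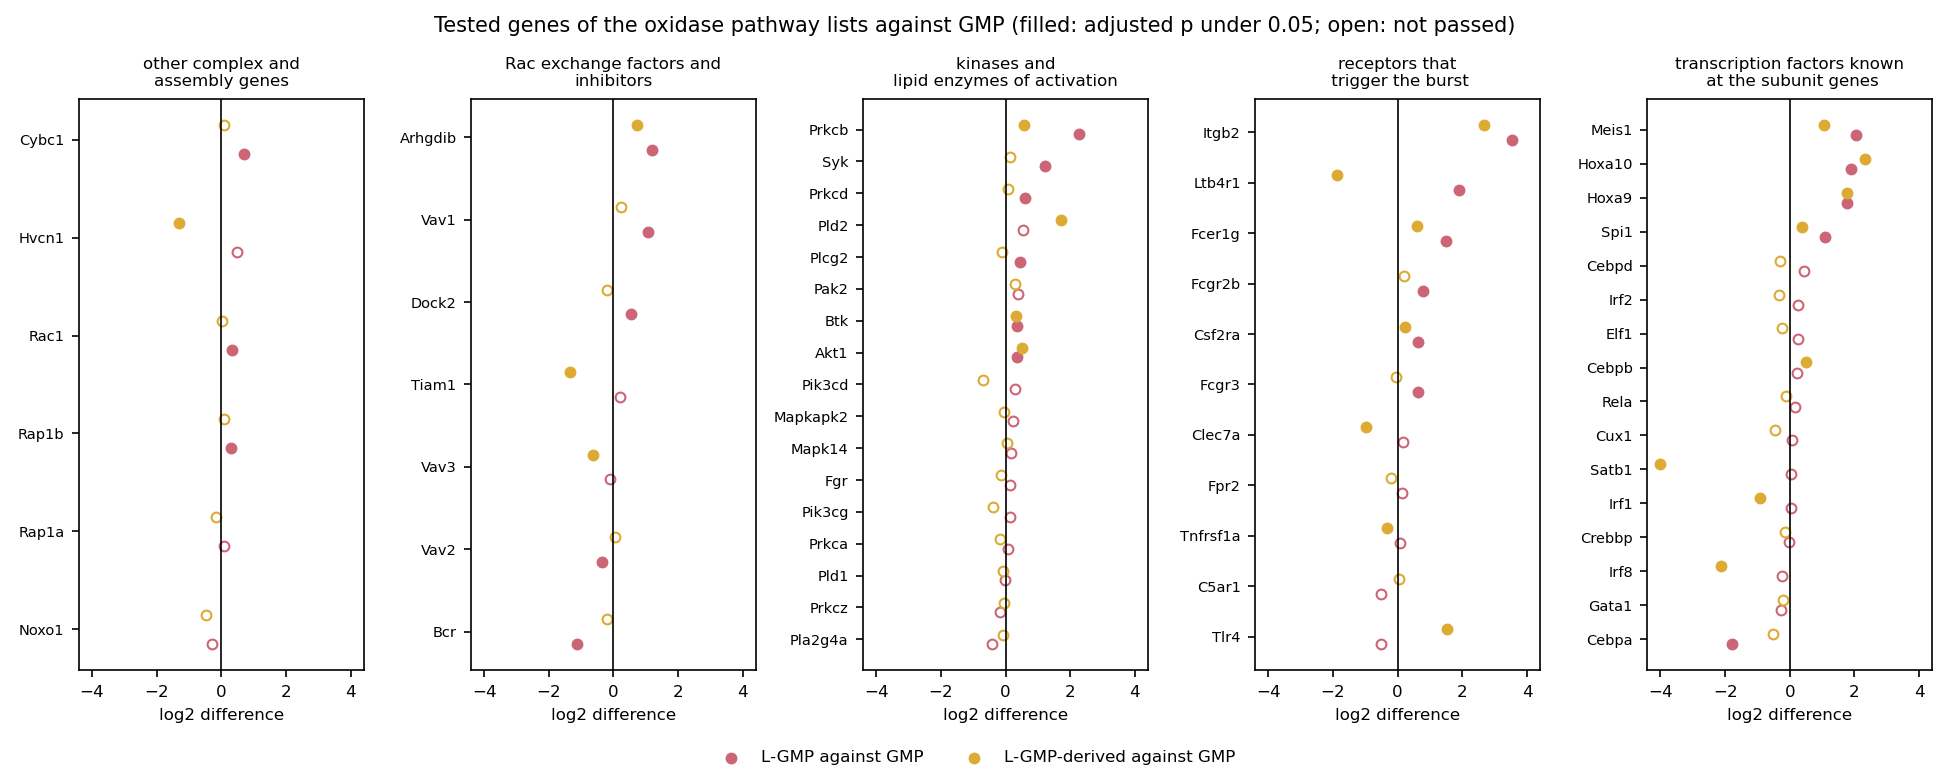
Log2 difference from GMP of each tested gene in 5 lists around the oxidase, for L-GMP (red) and L-GMP-derived cells (yellow), on one horizontal scale; filled points passed an adjusted p of 0.05 and open points did not. For L-GMP the assembly genes, kinases and lipid enzymes, and receptors have 3, 6 and 6 filled points, all to the right of 0, and Ltb4r1 lies on opposite sides of 0 in the 2 comparisons.

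The genes that switch the oxidase on were counted in the same way, and in each list the 4 largest called changes of each comparison are named. Among 17 kinases and lipid enzymes 6 rose and 0 fell in L-GMP against GMP, with a median log2 difference of 0.31. Of all genes tested, 13.1% were higher and 12.8% lower. Prkcb, a protein kinase C that phosphorylates p47phox, was 386 ± 27.8 in GMP, 1862.8 ± 151 in L-GMP and 579 ± 37.9 in L-GMP-derived cells, a 4.82-fold rise in L-GMP (adjusted p = 4.92e-07). Syk, the kinase behind Fc receptors and integrins, rose 2.32-fold (adjusted p = 6.96e-05), Prkcd 1.51-fold (adjusted p = 0.00456) and Plcg2 1.37-fold (adjusted p = 0.00264). In L-GMP-derived cells 13.4% of all genes tested were higher than in GMP and 10.7% lower. Of the 17, 4 were higher and 0 lower. They were Pld2, a phospholipase D (3.31-fold, adjusted p = 0.000598), Prkcb (log2 difference 0.58, adjusted p = 0.00444), Akt1 (1.41-fold, adjusted p = 0.00268) and Btk (1.24-fold, adjusted p = 0.0201). Against L-GMP 6 were lower, led by Prkcb (3.22-fold), Syk (2.09-fold) and Pik3cd (2.01-fold, adjusted p = 0.0467), and 1 was higher, Pld2 (2.26-fold, adjusted p = 0.00448).

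Of 11 tested receptors that trigger the burst, 6 rose and 0 fell in L-GMP against GMP, with a median log2 difference of 0.62. Itgb2, the shared beta chain of the leukocyte integrins, had the largest change: it was 111 ± 29.4 in GMP, 1280.7 ± 192 in L-GMP and 698 ± 41.9 in L-GMP-derived cells, 11.7-fold above GMP in L-GMP (adjusted p = 5.05e-07) and 6.40-fold in L-GMP-derived cells (adjusted p = 3.85e-06). Ltb4r1, the leukotriene B4 receptor, was 535 ± 79.6, 1971 ± 270.4 and 147 ± 21.1 in that order of groups, so that it rose 3.69-fold in L-GMP (adjusted p = 2.09e-05) and was 3.64-fold below GMP in L-GMP-derived cells (adjusted p = 2.19e-05). Fcer1g, the signalling chain of Fc receptors, was 1094.6 ± 125 in GMP, 3100.4 ± 171 in L-GMP and 1660.8 ± 357 in L-GMP-derived cells. Fcgr2b, the inhibitory Fc receptor, rose 1.73-fold in L-GMP (adjusted p = 0.00159). In L-GMP-derived cells 4 receptors were higher and 3 lower than in GMP, among them the endotoxin receptor Tlr4 (2.87-fold higher, adjusted p = 0.003) and Clec7a, the beta-glucan receptor (1.95-fold lower, adjusted p = 0.0207). Against L-GMP 8 of the 11 were lower, led by Ltb4r1 (13.4-fold), Clec7a (2.19-fold) and Fcer1g (1.89-fold), and 2 were higher, led by Tlr4 (at least 4.09-fold, adjusted p = 0.000417). GMP signals of Itgb2 (92.3 to 145) and Tlr4 (94.0 to 123) lay on both sides of the filter of 111. Both genes passed that filter only with the leukemic arrays. The shares over all genes tested were 13.1% higher and 12.8% lower for L-GMP against GMP. They were 13.4% higher and 10.7% lower for L-GMP-derived cells against GMP, and 16.6% higher and 14.1% lower against L-GMP.

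Of 7 Rac exchange factors and inhibitors, 3 rose and 2 fell in L-GMP against GMP. Arhgdib, which holds Rac2 inactive in the cytosol, was 2338.7 ± 324 in GMP, 5288.9 ± 494 in L-GMP and 3879.9 ± 140.1 in L-GMP-derived cells, the order of groups seen for Rac2. Vav1, an exchange factor that loads Rac with GTP in blood cells, rose 2.08-fold (adjusted p = 0.00815), and Dock2, another, rose 1.47-fold (adjusted p = 0.00506). Bcr, which turns Rac off, was 2.18-fold lower (adjusted p = 0.000469). In L-GMP-derived cells 2 of the 7 were lower than in GMP, Tiam1 (2.51-fold, adjusted p = 0.000134) and Vav3 (1.56-fold, adjusted p = 0.023), both exchange factors, and Arhgdib was higher (1.67-fold, adjusted p = 0.000427). Against L-GMP 5 were lower and 2 higher, with the largest changes in Tiam1 (2.87-fold lower), Bcr (1.91-fold higher), Vav1 (1.78-fold lower) and Dock2 (1.67-fold lower). Of all genes tested, 13.1% were higher and 12.8% lower in L-GMP against GMP. For L-GMP-derived cells 13.4% were higher and 10.7% lower against GMP, and 16.6% higher and 14.1% lower against L-GMP.

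Among 16 transcription factors known at the subunit genes, 4 rose and 1 fell in L-GMP against GMP, with a median log2 difference of 0.20. Meis1, a partner of Hox proteins, was 505 ± 36.7 in GMP, 2108 ± 176 in L-GMP and 1069.6 ± 179 in L-GMP-derived cells (4.17-fold higher in L-GMP, adjusted p = 3.22e-06). Hoxa9 rose 3.41-fold in L-GMP (adjusted p = 5.06e-07) and was 3.39-fold above GMP in L-GMP-derived cells (adjusted p = 5.65e-07). Hoxa10, at the floor in GMP, was at least 3.75-fold higher in L-GMP (adjusted p = 9.19e-06) and at least 4.98-fold higher in L-GMP-derived cells (adjusted p = 2.26e-06). Hoxa10 was thus tested only through its level in the leukemic cells. The factor that fell was Cebpa, the myeloid C/EBP factor, at 1169 ± 199 in GMP, 339 ± 71.7 in L-GMP and 825 ± 183 in L-GMP-derived cells. The remaining rise was Spi1, the gene of PU.1, at 824 ± 49.7 in GMP, 1740.2 ± 151 in L-GMP and 1078.3 ± 142 in L-GMP-derived cells (2.11-fold in L-GMP, adjusted p = 0.000129); it fell outside the 4 largest changes and was named after its values were seen. In L-GMP-derived cells 5 of the 16 were higher and 3 lower than in GMP, and 1 was higher and 8 lower than in L-GMP. Of all genes tested, 13.1% were higher and 12.8% lower in L-GMP against GMP. For L-GMP-derived cells 13.4% were higher and 10.7% lower against GMP, and 16.6% higher and 14.1% lower against L-GMP. Irf8, a partner of PU.1 at the Cybb gene, was 2327.7 ± 32.7 in GMP and 1985.3 ± 239 in L-GMP, which did not pass (adjusted p = 0.486), and 556 ± 224 in L-GMP-derived cells, 4.41-fold below GMP (adjusted p = 8.16e-05) and 3.74-fold below L-GMP (adjusted p = 0.000145). Satb1 was at least 16.3-fold below GMP there (adjusted p = 5.57e-06) and at least 16.8-fold below L-GMP (adjusted p = 6.02e-06). Cebpa was the one that was higher than in L-GMP, by 2.43-fold (adjusted p = 0.00119), and Meis1 was 1.98-fold lower (adjusted p = 0.000379).

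**Figure D4:**
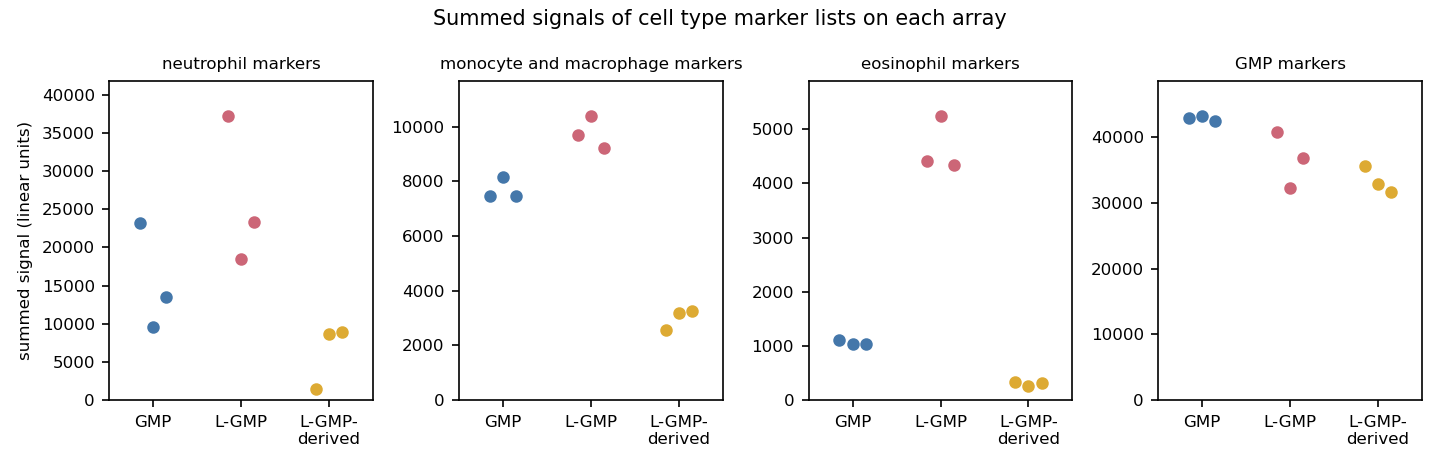
Summed signal in linear units, from 0, of the neutrophil, monocyte and macrophage, eosinophil and GMP marker lists, with 1 point for each array, by group; each panel has its own scale. The neutrophil sums range from 9572 to 23211 in GMP, from 18443 to 37286 in L-GMP and from 1450.0 to 8976 in L-GMP-derived cells.

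Markers of mature myeloid cells also moved between groups. Summed neutrophil markers (10 of 13 on the array) ranged from 9572 to 23211 in GMP, from 18443 to 37286 in L-GMP and from 1450.0 to 8976 in L-GMP-derived cells. Of 7 tested, 0 were called in L-GMP against GMP, where 13.1% of all genes tested were higher and 12.8% lower. Camp was 1894 ± 1464 in GMP and 5778 ± 2566 in L-GMP, whereas Ltf was 333 ± 15.2 and 341 ± 36.5. Csf3r was 522 ± 6.66 in GMP and 520 ± 29.1 in L-GMP. Cxcr2, which was not tested, was 84.1 ± 9.50 in GMP and under the floor on all 3 L-GMP arrays. The highest L-GMP sum was in replicate 1, the L-GMP array with the most Cybb, Cyba, Ncf1 (1451767_at) and Ncf4. Rac2 was highest in replicate 3 (1899, against 1795 in replicate 1). The sum was 18443 in replicate 2 and 23385 in replicate 3, whereas Cyba, Ncf1 and Ncf4 were lower in replicate 3 than in replicate 2. Across GMP replicates 1 to 3 the neutrophil sum was 23211, 9572 and 13499.7. Cyba (685, 603 and 644) and Ncf1 1451767_at (81.5, 65.0 and 67.7) had the order of these sums, and Ncf4 (1663, 1792 and 1761) and Rac2 (479, 499 and 493) had the opposite order. Monocyte and macrophage sums (10 of 12 on the array) were 7451 to 8169.95 in GMP, 9233 to 10400.4 in L-GMP and 2567 to 3251 in L-GMP-derived cells. In L-GMP against GMP 3 of the 6 tested rose, against 13.1% of all genes tested. These were Adgre1, the macrophage antigen F4/80 (375 ± 13.5 to 3072 ± 338), Cd68 (98.0 ± 7.57 to 372 ± 11.8) and C1qb (219.5 ± 44.8 to 594 ± 131). The other 3 tested did not pass and had lower means in L-GMP. They were Csf1r (5767 ± 507 to 4673 ± 476), Lyz2 (873 ± 275 to 719 ± 309) and Cd14 (145 ± 69.9 to 120 ± 30.7). The highest GMP signal of Cd68 was 103, under the filter of 111, so Cd68 was tested only through its level in the leukemic cells. In L-GMP-derived cells against GMP 13.4% of all genes tested were higher and 10.7% lower. Of the 6 monocyte and macrophage markers 2 rose and 1 fell, with a median log2 difference of 0.34. The fall was in Csf1r, from 5767 ± 507 to 535 ± 247, while Adgre1 (984 ± 505) and Cd68 (214 ± 34.4) were higher than in GMP. Adgre1 was 402, 1253 and 1297 in L-GMP-derived replicates 1 to 3, so that replicate 1 lay near the highest GMP signal of 387. Eosinophil sums (5 of 7 on the array) were 1030.5 to 1112 in GMP, 4348 to 5251 in L-GMP and 265 to 337 in L-GMP-derived cells. Prg2, the eosinophil major basic protein, was 221 ± 166 in GMP and 2669 ± 286 in L-GMP, and Siglecf was 656 ± 83.6 and 1820.4 ± 210.2. These were the 2 of 3 tested that were called higher, against 13.1% of all genes tested. Il5ra, at 105 ± 23.8 and 118 ± 24.7, did not pass. Epx, which was not tested, was 48.4 ± 27.0 in GMP and 43.2 ± 8.61 in L-GMP, so the list did not rise as a whole. Of the listed markers, Mmp9, Fcgr1, Mrc1 and Ccr3 were at the floor on all 9 arrays. B cell sums were 1879 to 2076 in GMP and 2048 to 2313 in L-GMP, T and NK cell sums 3395 to 3582 and 2543 to 3069, and erythroid and megakaryocyte sums 1345 to 1533 and 1163 to 1389. The part of these cells in the oxidase differences was not tested.

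The 3′ to 5′ ratio of the beta-actin control, a measure of RNA integrity and labelling, was 7.37 ± 0.65 in GMP, 5.17 ± 0.36 in L-GMP and 7.10 ± 0.14 in L-GMP-derived cells (SD, n = 3 each). L-GMP differed from either other group by an exact two-sided permutation p of 0.1, the smallest that 3 against 3 arrays allow. The Gapdh ratio overlapped between groups, at 7.86 ± 0.85, 8.09 ± 3.05 and 7.21 ± 1.78. Their part in the higher L-GMP signals of Cyba, Ncf1, Ncf4 and Rac2 was not tested.

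Genes with the pattern most like each member were taken by the root mean square difference of centred log2 signals over the 9 arrays, among 8964 other genes, for the 3 members whose group means span at least 1. Rac2 was closest to Camk1 (0.112), Dok3 (0.135) and Grk6 (0.149), differences on the log2 scale. Dok3, an adaptor of myeloid and B cell signalling, was 338 ± 53.2 in GMP, 1169.5 ± 37.4 in L-GMP and 462 ± 21.6 in L-GMP-derived cells, whereas Camk1 was at the floor on all 3 GMP arrays. Cyba was closest to Arap3 (0.218), Olr1 (0.251) and Neu1 (0.256). Olr1, a scavenger receptor, was 478 ± 41.2 in GMP, 2017.6 ± 216 in L-GMP and 1614.3 ± 433 in L-GMP-derived cells, so that like Cyba it stayed high in vitro. Ncf1 (1451767_at) was closest to Add3 (0.128), Apoc2 (0.162) and Lamb1 (0.170), and Lamb1 was at the floor on all 3 GMP arrays. These are descriptions over 9 arrays in which each set was the nearest among many genes. Ncf4, whose group means span 0.91, and Cybb were not given such genes.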

How the data were processed

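The authors deposited 1 linear array intensity per probe set and array, scaled by them. MAS5 (version 5) is named in the submitters' processing notes; how probes were summarised is not stated, and 1917 of 204210 values (0.939%) are negative, to -1890.55. This scaling was kept because trimmed means, with 2% taken off either end, differed from their average by at most 4.06%, against a limit of 5%. Values under 62.4, the 25th percentile, were set to it and log2 was taken, which understates the folds of dim genes. A probe set was tested if at least 3 of 9 arrays exceeded 111 (40th percentile); 64 control probe sets were left out. limma 3.58.1 (R 4.3.3; lmFit, eBayes with an intensity trend) was fitted to all 9 arrays with 6 residual degrees of freedom. Two-sided p-values were adjusted by Benjamini-Hochberg over 14578 probe sets, with a threshold of 0.05. Folds are between means of floored log2 signals.

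Probe sets were named from the platform annotation (20393 with 1 symbol, 691 with several, 1606 with none). Where a listed gene had several probe sets, the brightest by mean log2 signal was used. All 6 member probe sets matched RefSeq by gene ID. The precision is limited by the number of arrays. The unnumbered GMP array was called replicate 1. Whether replicate numbers pair the arrays is not stated, and the main fit used no pairing. Deviations of 7 same-numbered pairs correlated at -0.31 to 0.17. The members and lists were chosen with earlier results of these data known. The text names every member and complex gene, from each other list up to 4 genes with the largest called changes of a comparison, the 3 genes most like a member, and marker genes. Alternatives were other scalings, floors, filters, probe set rules, arrays in the fit, weights, a replicate block and leaving out each array. The code was checked on simulated data. Promoters of Ncf4 and Rac2 were not analysed here.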

Additional observations from a re-analysis of the deposited data

How the results depend on the processing

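Of 228 member tests under alternatives, all 228 kept their sign, 204 their side of the threshold, 13 were no longer past it and 11 were newly past it. The counts over all probe sets varied: 3777 were called in L-GMP against GMP, 2475 to 4904 with 1 array left out and 1916 with the replicate block. In L-GMP-derived cells against GMP the counts were 3551, 2306 to 4456 with 1 array left out (lowest without GMP replicate 3), 6912 with array weights and 1750 with the replicate block. The labels do not say whether equal numbers pair arrays. Of 6 L-GMP and L-GMP-derived arrays, 0 correlated best with their own number. With 3 arrays a group this cannot exclude a pairing. With this replicate block 1 oxidase probe set was called higher in L-GMP-derived cells against GMP, with Rac2 at 0.48 (adjusted p = 0.130) and Ncf1 at 0.70 (0.0502), log2 differences as throughout.

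In that comparison Ncf1 was 0.16 with the floor at the 40th percentile (adjusted p = 0.619), 0.80 without a filter (0.0846) and 0.67 to 0.90 with 1 array left out. Ncf4 was 0.24 with quantile normalization (0.0428), 0.28 with array weights (0.00174), 0.24 with probe sets of a gene averaged (0.0444) and 0.21 to 0.28 with 1 array left out. In L-GMP-derived cells against L-GMP, Cyba was -0.29 with quantile normalization (0.0449), -0.32 with equal medians (0.0256), -0.25 with array weights (0.0315), -0.30 with probe sets of a gene averaged (0.0439) and -0.37 to -0.20 with 1 array left out. Ncf1 was -0.78 without a filter (0.0786), -0.78 with the 6 arrays compared (0.0626) and -0.95 to -0.52 with 1 array left out. Signs that turned belonged to uncalled differences near 0. For L-GMP-derived cells against GMP with 1 array left out, Cybc1 ranged from -0.014 to 0.11 (below 0 without L-GMP-derived replicate 2) and Rac1 from -0.0069 to 0.086 (below 0 without L-GMP-derived replicate 3). Against L-GMP, Noxo1 ranged from -0.47 to 0.081 (above 0 without L-GMP replicate 2). The cause was not tested.

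Of 648 list counts under alternatives 582 stayed within 1.5 times. With the promoter window extended to 50 bases after the start, chosen after seeing the data, Cybb had 5 motif matches and Ncf1 had 2. With the floor at the 40th percentile 1 of the 3 nearest genes was shared for Cyba, Ncf1 and Rac2 each, also chosen after seeing the data, as was the count of members without Ncf1. With 1 array left out, 1 to 3 of the nearest genes were shared for Cyba and for Ncf1, and 2 to 3 for Rac2. Signal over background limits Cybb and both Ncf1 probe sets most.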
